A study of Sus scrofa with 16 samples.

Results

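This account compares porcine embryonic stem cells derived from a parthenogenetic (PA) embryo with those derived by in vitro fertilization (IVF), both before any neural differentiation (day 0). The members were the 4 libraries that the labels place at day 0, 2 from each origin, out of 16 libraries in the series. The deposited table listed 28232 genes, of which 19875 had a count in at least 1 day 0 library and 18528 were abundant enough across the series to be tested. Both groups were undifferentiated pESCs: the PA group was the line PA_3_pESC_FIW and the IVF group the line IVF_1_pESC_FIW. Both had been kept on mouse embryonic fibroblast feeders in a medium with FGF2, IWR-1 and WH-4-023. For differentiation both were seeded on Matrigel in that medium with Y-27632 before day 0. The sources used here do not say if day 0 RNA was taken after that step, or if feeder cells were removed first. The other 12 libraries followed the same lines to days 16, 28 and 45 of differentiation towards midbrain dopaminergic neurons. Each origin was represented by a single line, so embryo origin cannot be told apart from any other feature by which the lines differ. The p-values rest on the spread between replicate libraries of all 8 groups of the series, not of day 0 alone. Nothing in the labels tells if replicates came from separate cultures, so that spread may be technical.

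A parthenogenetic embryo develops from an egg activated without sperm, so all its chromosome sets are maternal. Imprinted genes are transcribed from the copy inherited from only one parent, under the control of methylation marks set in the egg or sperm. Cells with no paternal genome therefore lack the copy from which paternally expressed genes are read, and carry only maternal copies of the maternally expressed ones. Embryonic stem cells also drift in culture, and lines made from different embryos differ in genotype, in how tightly they hold the pluripotent state and in how many cells stray towards epithelial, endodermal or neural fates.

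The day 0 libraries held 39247693 and 40369138 counts in IVF cells and 47706895 and 52165867 counts in PA cells. A floor of 3 counts corresponded to 0.0634 to 0.0815 counts per 1000000 (CPM) in a library, and intervals and bounds given here cover counting error only. On log2(CPM + 1), Pearson's r across genes was 0.997 between the IVF replicates and 0.998 between the PA replicates, against 0.982 to 0.984 between libraries of different origin. Genes are not independent replicates, so these are descriptions. Replicates differed by more than sampling noise, with a chi-square per degree of freedom of 8.39 for the IVF pair and 6.25 for the PA pair.

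Most genes did not pass the test between PA and IVF cells. By edgeR's quasi-likelihood test, fitted to all 16 libraries, 734 genes were higher and 490 lower in PA cells with a call needing a 2-fold difference and a Benjamini-Hochberg adjusted p under 0.05. These were 3.96% and 2.64% of the genes tested, and 6.61% in either direction. The median log2 fold change over all genes tested was 0.01. At least 8-fold differences were seen for 194 of the higher and 136 of the lower genes. Libraries of the groups did not overlap for 67.7% of the genes tested, so separation of 4 values was in itself common. Protein-coding genes gave 634 higher and 394 lower calls among 15881 tested, and long non-coding RNAs 79 and 84 among 2275. Without IVF replicate 1 the test called 465 genes higher, and without PA replicate 2 it called 476. In all 4 fits that left out a library, 340 higher and 267 lower calls were kept.

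**Figure D1:**
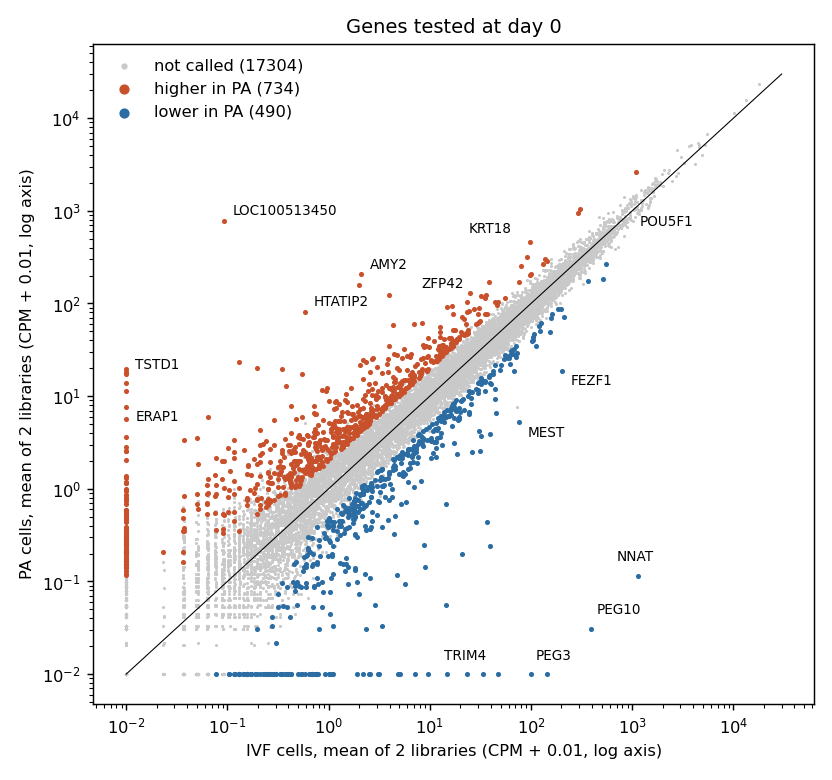
Each point is a gene, placed by its mean CPM in the 2 IVF libraries (horizontal) and the 2 PA libraries (vertical), both on log axes after adding 0.01. The 734 genes higher in PA are orange and the 490 lower genes are blue, and the columns of points at the left edge and the row at the bottom are genes with 0 counts in one of the groups.

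Most of the paternally expressed imprinted genes tested were lower or undetected in PA cells. Of 28 symbols on a list of genes read from the paternal copy in human or mouse, 20 were in the table and 19 were tested. None was higher in PA cells, 13 were lower and 6 were not called, against 2.64% lower among all genes tested. The median log2 fold change of the list was -7.09, or -5.95 with genes at 0 in a group set to their bound. All 13 calls were kept in each fit that left out a library.

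PEG3, which encodes a zinc finger protein and lies at chr6:61281931-61307788 of Sscrofa11.1, was counted at 156 and 132 CPM in the IVF replicates and at 0 in both PA replicates. PEG3 was thus at least 2178-fold lower in PA cells against a floor of 3 counts in each library (adjusted p = 1.1e-09). MAGEL2, a regulator of ubiquitin ligases on chromosome 1 (chr1:142450414-142454633), had 110 and 90.9 CPM in IVF cells and 0 in both PA libraries. It was at least 1526-fold lower (adjusted p = 1.5e-10), and neither PA library held a read of it. NDN, its neighbour at chr1:142412688-142413665 and a growth suppressor of neurons, had 34.3 and 32.2 CPM against 0 and 0, at least 504-fold lower (adjusted p = 1.5e-08). The third gene of this group, MKRN3, had 3.18 and 3.54 CPM in IVF cells and 0.0457 and 0 CPM in PA cells. With so few PA counts its ratio was 153, with a 95% counting interval of 41.9 to 1271. NDN, MAGEL2 and MKRN3 were consecutive expressed genes and all 3 were lower in PA cells, whereas UBE3A, a ubiquitin ligase gene of the same imprinted region that is read from the maternal copy in neurons, had 94.8 and 94.8 CPM in IVF and 80.9 and 77.0 CPM in PA cells and was not called (log2 fold change -0.26 ± 0.15 SE, adjusted p = 0.27).

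PEG10 and SGCE are divergently transcribed neighbours on chromosome 9. PEG10, a gene derived from a retrotransposon and needed for placenta formation in mice, lies at chr9:74474121-74486983 and was counted at 447 and 341 CPM in IVF cells, against 0 and 0.0423 CPM in PA cells. The PA value rested on 2 reads in 1 library, and the ratio of 17899 had a 95% counting interval of 4954 to 147802. SGCE, a muscle membrane glycoprotein gene at chr9:74402714-74473904, had 15.8 and 13.9 CPM in IVF cells and 0 in both PA libraries, at least 226-fold lower (adjusted p = 3.5e-08). Of the maternal genes nearby, PPP1R9A was not called (log2 fold change -0.24 ± 0.10 SE, adjusted p = 0.12), ASB4 was higher (2.46 ± 0.42, adjusted p = 0.0012), and TFPI2 on the other side of SGCE was lower (-1.80 ± 0.48, adjusted p = 0.020). The ASB4 and TFPI2 levels were low, with no library above 1.94 CPM for ASB4 or 1.24 CPM for TFPI2. The TFPI2 call was lost in every fit that left out a library, with adjusted p from 0.064 to 0.11.

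The stretches of genome beside the starts of these genes are shown because neighbours on opposite strands were undetected together in PA cells. They were read from the RefSeq assembly Sscrofa11.1, with each CG, the dinucleotide that carries DNA methylation, in capitals. The first is the whole interval between the annotated starts of SGCE and PEG10, chr9:74473905-74474120 on the plus strand, which had 18 CG in 216 bases. The second is that between PEG3 and the divergent gene LOC110261077, chr6:61307789-61307883 on the plus strand, with 6 CG in 95 bases. LOC110261077 had 7.07 and 7.26 CPM in IVF cells and 0 in both PA libraries, at least 109-fold lower. The third is the stretch of 200 bases before NDN, chr1:142412488-142412687 on the plus strand. The fourth, for comparison, is the stretch before TRIM4, a gene that is not on the imprinted lists but was also at 0 in PA cells, chr3:7837588-7837787 on the minus strand.
between SGCE and PEG10: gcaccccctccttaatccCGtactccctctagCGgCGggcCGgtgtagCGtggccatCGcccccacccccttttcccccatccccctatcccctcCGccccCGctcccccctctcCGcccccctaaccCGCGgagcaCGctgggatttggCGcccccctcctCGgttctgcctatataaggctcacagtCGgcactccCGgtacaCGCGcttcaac
between PEG3 and LOC110261077: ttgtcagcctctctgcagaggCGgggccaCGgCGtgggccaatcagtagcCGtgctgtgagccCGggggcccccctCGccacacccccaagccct
NDN: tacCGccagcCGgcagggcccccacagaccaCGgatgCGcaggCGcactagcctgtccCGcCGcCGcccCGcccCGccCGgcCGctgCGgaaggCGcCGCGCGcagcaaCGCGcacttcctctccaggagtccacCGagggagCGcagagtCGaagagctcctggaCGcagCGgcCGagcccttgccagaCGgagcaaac
TRIM4: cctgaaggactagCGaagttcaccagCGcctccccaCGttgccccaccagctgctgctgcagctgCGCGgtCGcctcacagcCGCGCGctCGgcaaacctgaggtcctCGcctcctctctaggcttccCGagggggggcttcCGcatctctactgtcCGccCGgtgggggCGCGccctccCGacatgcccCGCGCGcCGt

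The stretch before NDN held 26 CG, a number reached or passed by 12.8% of 18498 tested genes with such a stretch, and that before TRIM4 held 22, reached by 20.6%. CG reads the same on both strands, so each was counted once. Across the 13 lower genes of the paternal list the 200 bases before the annotated start held 1 to 36 CG, with a median of 13, beside a median of 11 for the 6 genes that were not called and 12 for all genes. These counts describe the reference sequence, and methylation itself was not measured.

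NNAT, a proteolipid gene of the developing brain, lay inside another gene that was not called. NNAT is at chr17:40625990-40629523, inside BLCAP, and had 1231 and 1066 CPM in IVF cells against 0 and 0.211 CPM in PA cells (log2 fold change -13.32 ± 0.42, adjusted p = 2.2e-10). BLCAP itself had 64.9 and 62.4 CPM in IVF cells and 72.3 and 71.0 CPM in PA cells and was not called (0.17 ± 0.10, adjusted p = 0.29). NAP1L5, a nucleosome assembly protein gene at chr8:130364566-130365464, had 10.2 and 9.19 CPM against 0 and 0, at least 147-fold lower (adjusted p = 1.5e-08). DIRAS3, a small GTPase gene, had 2.83 and 2.93 CPM in IVF cells and 0.0914 and 0 CPM in PA cells (-5.95 ± 0.65, adjusted p = 3.3e-05).

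MEST and PLAGL1 were reduced but not lost. MEST, a hydrolase gene at chr18:18319126-18358655, had 82.5 and 69.8 CPM in IVF cells and 5.16 and 5.22 CPM in PA cells (log2 fold change -3.87 ± 0.28, adjusted p = 5.7e-07), so that both PA libraries kept a measurable level. COPG2, which overlaps MEST on the other strand, was not called (0.18 ± 0.11, adjusted p = 0.29), and the strand setting of the counting is not given in the sources used here. PLAGL1, a zinc finger regulator of growth, had 12.4 and 15.1 CPM in IVF cells and 6.08 and 4.40 CPM in PA cells (-1.40 ± 0.16, adjusted p = 4.4e-05). The 6 genes of the list that were not called were INPP5F, IMPACT, ZDBF2, L3MBTL1, SFMBT2 and IGF2. IGF2, the fetal growth factor, had 7.94 and 7.13 CPM in IVF cells and 10.2 and 10.4 CPM in PA cells (0.45 ± 0.17, adjusted p = 0.083). IMPACT had 31.9 and 35.4 CPM in IVF cells and 34.4 and 32.8 CPM in PA cells, and those libraries overlapped. INPP5F had 84.8 and 84.7 CPM against 70.6 and 61.6 CPM (-0.36 ± 0.17, adjusted p = 0.18). ZDBF2, L3MBTL1 and SFMBT2 had log2 fold changes of 0.23, 0.29 and 0.31.

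**Figure D2:**
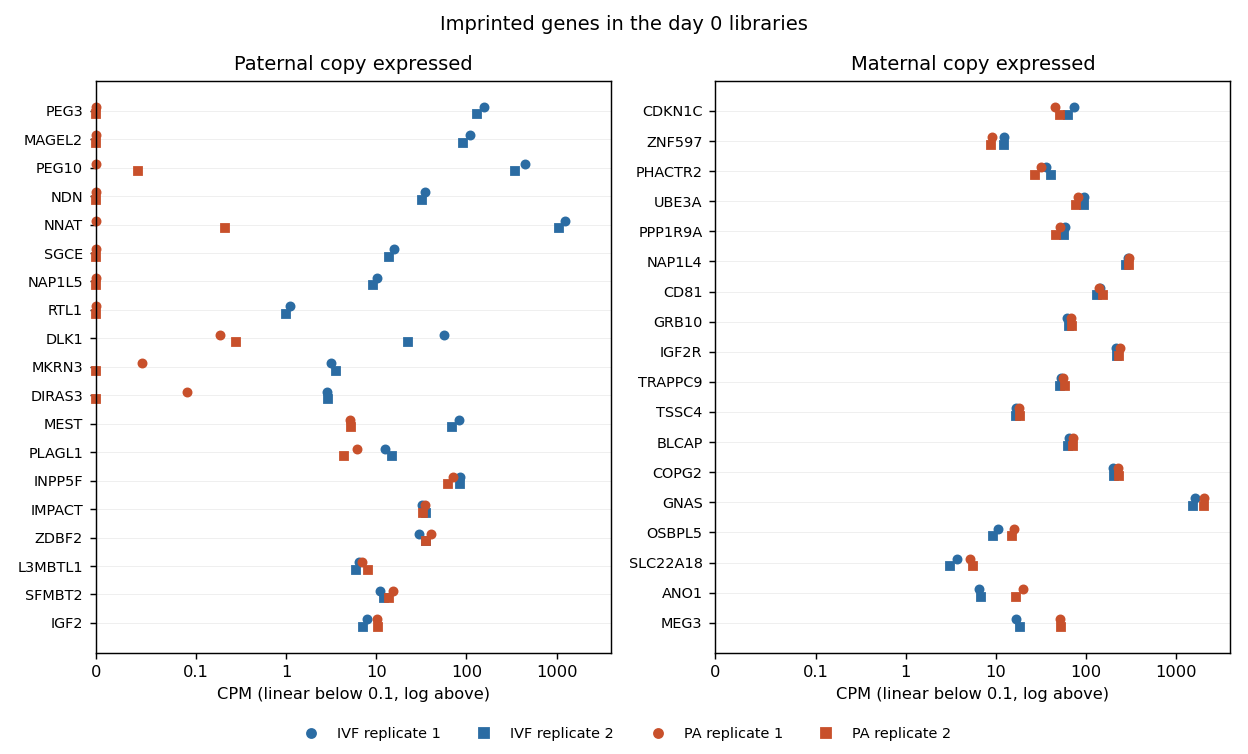
Level of each imprinted gene in the 4 day 0 libraries (CPM, linear below 0.1 and logarithmic above), with IVF libraries in blue, PA libraries in orange and replicates as circles and squares. On the left are the 19 tested genes of the paternal list, on the right the genes of the maternal list with at least 5 CPM in a group, both ordered by fold change. The upper 13 genes on the left are lower in PA cells, 11 of them at or below 0.275 CPM (DLK1) in both PA libraries and MEST and PLAGL1 between 4.40 and 6.08 CPM, while MEG3 and ANO1 are shifted to the right in PA cells.

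Most genes read from the maternal copy were not called. Of 29 tested, 4 were higher in PA cells (KCNQ1, ANO1, MEG3 and ASB4), 1 was lower (TFPI2) and 24 were not called, beside 3.96% higher and 2.64% lower among all genes tested, with a median log2 fold change of 0.14. The KCNQ1 call was lost in every fit that left out a library (highest adjusted p = 0.17). MEG3, a long non-coding RNA at chr7:121656253-121660495, had 16.9 and 18.5 CPM in IVF cells and 51.5 and 53.2 CPM in PA cells, 2.95-fold higher (log2 fold change 1.56 ± 0.16, adjusted p = 1.4e-05). ANO1, a calcium-activated chloride channel gene, had 6.58 and 6.81 CPM in IVF cells and 19.97 and 16.8 CPM in PA cells (1.46 ± 0.26, adjusted p = 0.0019). Both groups were clearly separated for these genes. The growth inhibitor gene CDKN1C, also read from the maternal copy, had 74.2 and 63.2 CPM in IVF cells and 45.0 and 51.2 CPM in PA cells and was not called (-0.52 ± 0.26, adjusted p = 0.20). IGF2R, which clears IGF2 from the cell surface, had 213 and 221 CPM against 238 and 235 CPM (0.12 ± 0.12, adjusted p = 0.52). GNAS, the gene of a stimulatory G protein, had 1622 and 1555 CPM against 2010 and 2026 CPM, a log2 fold change of 0.35 that passed the adjusted p (0.024) but not the 2-fold minimum. OSBPL5 was alike, at 0.62 ± 0.12 (adjusted p = 0.0037). The remaining genes of the maternal list with at least 5 CPM in a group had log2 fold changes from -0.48 (ZNF597) to 0.64 (SLC22A18), including GRB10, CD81, TSSC4, NAP1L4, PHACTR2 and TRAPPC9, and none passed the test. H19 was not analysed here.

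The DLK1 to MEG3 region of chromosome 7 showed both directions side by side. DLK1, a ligand-like inhibitor of NOTCH signalling at chr7:121565844-121577493, had 57.0 and 22.3 CPM in IVF cells and 0.183 and 0.275 CPM in PA cells (log2 fold change -7.41 ± 0.55, adjusted p = 7.6e-07). The IVF replicates differed from each other by more than for other genes of the list, yet both were far above the PA replicates. RTL1, a second gene of retrotransposon origin in the region, had 1.11 and 1.00 CPM in IVF cells and 0 in both PA libraries, at least 16.1-fold lower (adjusted p = 0.0013). From MEG3 onwards, 5 genes on the plus strand between 121656253 and 121844012 were all higher in PA cells. The last of them, LOC110261648, had 28.0 and 22.4 CPM in IVF cells and 125 and 133 CPM in PA cells (2.36 ± 0.14, adjusted p = 1.2e-07), beside 1.56 for MEG3. The 3 genes between them, LOC106504559, LOC102163738 and LOC110261647, rose by 1.79, 1.56 and 1.68 on the log2 scale. RTL1 overlaps LOC106504559 on the other strand, so reads of the pair cannot be told apart if strand was not used. These neighbours were looked up after their values were seen.

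A further set of genes was detected in only one of the lines. With a minimum mean of 5 CPM in the higher group, 7 genes were counted in PA cells with 0 counts in both IVF libraries, and 10 were counted in IVF cells with at most 3 counts over both PA libraries. Of the 10, PEG3, MAGEL2, PEG10, NDN, SGCE and NAP1L5 were on the paternal list and LOC110261077 adjoined PEG3. The other 3 were TRIM4 and the zinc finger genes LOC100521431 and LOC100624806. TRIM4, a tripartite motif gene at chr3:7815188-7837587, had 48.1 and 47.1 CPM in IVF cells and 0 in both PA libraries, at least 722-fold lower (adjusted p = 2.8e-09). LOC100521431 had 24.6 and 22.2 CPM against 0 and 0, at least 355-fold lower (adjusted p = 1e-05). Zinc finger genes have close relatives with which reads may be shared, so the values of LOC100521431 and LOC100624806 are uncertain.

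The 7 genes counted only in PA cells were TSTD1, UNC13C, RBM46, CAV2, KCNA6, ERAP1 and LOC100736569. TSTD1, a small sulfurtransferase gene on chromosome 4, had 18.2 and 20.6 CPM in PA cells and was at least 242-fold higher (adjusted p = 7e-06). UNC13C, which encodes a protein of synaptic vesicle priming, had 18.5 and 18.2 CPM, at least 228-fold higher (adjusted p = 5.2e-08). RBM46, an RNA-binding protein gene needed in germ cells of mice, had 18.4 and 16.7 CPM, at least 218-fold higher (adjusted p = 2.2e-05). For each of these genes the PA replicates lay close together and neither IVF library had a read. CAV2, a caveolin gene, had 14.1 and 13.5 CPM, at least 171-fold higher, and KCNA6, a potassium channel gene, had 11.2 and 11.4 CPM, at least 141-fold higher. ERAP1, which trims peptides for antigen presentation, had 7.47 and 7.78 CPM, at least 94.9-fold higher (adjusted p = 4.1e-06).

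Other large rises started from a low but countable level in IVF cells. AMY2, an amylase gene on chromosome 4, had 2.36 and 1.77 CPM in IVF cells and 201 and 215 CPM in PA cells (log2 fold change 6.65 ± 0.24, adjusted p = 6.1e-10). The 3 next expressed genes, LOC100521789, LOC110260364 and LOC100522672, rose with it by 6.30, 6.71 and 4.96 on the log2 scale. LOC100521789 and LOC100522672 are annotated as pancreatic alpha-amylase or alike, so reads may be shared among near-identical copies and the values of single copies are uncertain. HTATIP2, an oxidoreductase gene, had 0.489 and 0.660 CPM in IVF cells and 81.8 and 81.5 CPM in PA cells (7.14 ± 0.33, adjusted p = 7.9e-09). ZFR2, a zinc finger RNA-binding gene, had 0.163 and 0.0792 CPM against 24.5 and 22.6 CPM (7.58 ± 0.36, adjusted p = 9.4e-09). CTSZ, a lysosomal protease gene, had 0.353 and 0.317 CPM against 19.65 and 19.99 CPM (5.88 ± 0.54, adjusted p = 6.9e-06). TRIM25, a ubiquitin ligase of the antiviral response, rose by 5.08, ADCY2, an adenylate cyclase, by 4.28 and ACTA1, the skeletal muscle actin, by 3.75 on the log2 scale. Genes named by size were taken only if the libraries of the groups did not overlap, so their separation was fixed by that choice.

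The abundant calls with the smallest adjusted p included further single genes. DDR2, a collagen receptor, had 16.0 and 17.2 CPM in IVF cells and 96.3 and 92.2 CPM in PA cells (2.50 ± 0.17, adjusted p = 2.7e-07). CTSV, a cathepsin gene, had 41.2 and 35.0 CPM against 171 and 173 CPM (2.17 ± 0.12, adjusted p = 5.3e-08). C12H17orf80 had 21.3 and 22.6 CPM against 68.2 and 67.4 CPM (1.63 ± 0.11, adjusted p = 2.8e-07). In the other direction ARHGAP28 had 63.3 and 71.9 CPM in IVF cells and 20.02 and 17.2 CPM in PA cells (-1.86 ± 0.12, adjusted p = 1.7e-07).

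Among genes without a symbol, chosen after their values were seen, and averaging 20 CPM or more in one of the groups, the largest rise was at LOC100513450, annotated as P antigen family member 4 and placed on the X chromosome at 43489559 to 43496654. It had 0.163 and 0 CPM in IVF cells and 782 and 788 CPM in PA cells (log2 fold change 13.21 ± 0.33, adjusted p = 2.2e-10). The IVF value rested on 6 reads of 1 library. The largest falls under the same minimum, after LOC100521431, were LOC100513397, with 21.7 and 19.7 CPM in IVF cells and 0.183 and 0.190 CPM in PA cells, and LOC100154105, a kelch repeat gene, with 38.4 and 34.7 CPM against 0.503 and 0.359 CPM.

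**Figure D3:**
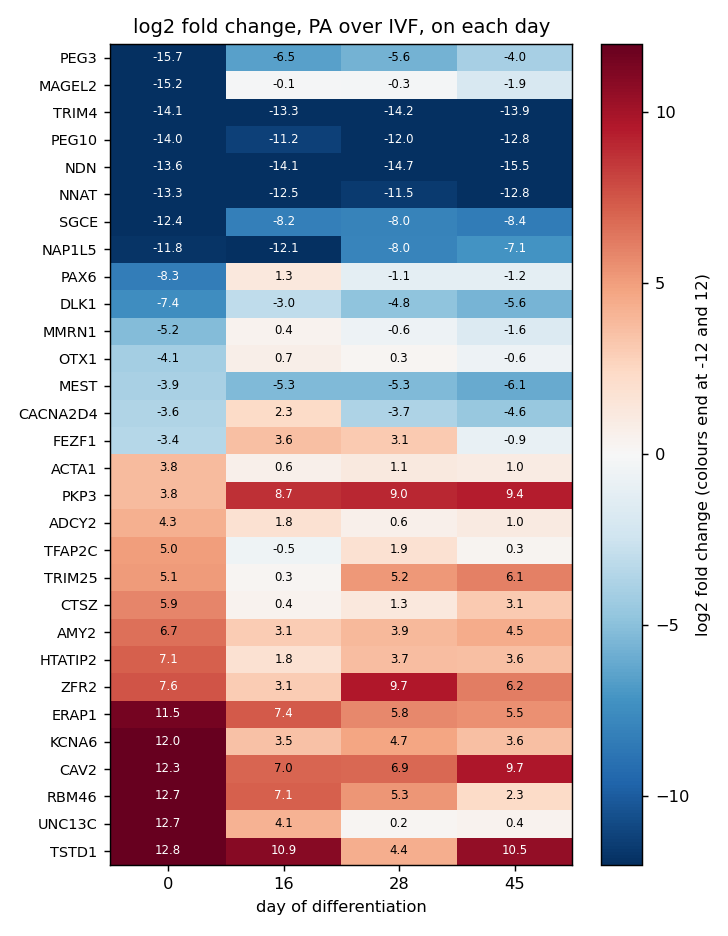
log2 fold change of PA over IVF cells at day 0, 16, 28 and 45 for the 15 genes with the largest rise and the 15 with the largest fall at day 0 that were named by the rule on size, with red for higher and blue for lower in PA cells. TRIM4, NDN, NNAT and PEG10 stay below -11 on every day, while MAGEL2 and UNC13C are near 0 at day 28. Fitted values of genes at 0 in a group depend on the prior count and are no bounds.

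Most core pluripotency factors did not pass the test. Of 20 tested genes, 18 were not called, and the median log2 fold change was 0.04. POU5F1, the central pluripotency factor, had 929 and 907 CPM in IVF cells and 1042 and 1105 CPM in PA cells (0.23 ± 0.12, adjusted p = 0.25). SOX2, its partner, had 254 and 222 CPM against 217 and 220 CPM (-0.13 ± 0.16, adjusted p = 0.65). The symbol NANOG (listed as NANOG_100170132 and NANOG_106507523) was carried by 2 gene IDs, and the ID with more counts, on chromosome 5, had 16.1 and 15.5 CPM against 12.2 and 12.3 CPM (-0.36 ± 0.34, adjusted p = 0.52). SALL4, LIN28A, LIN28B, PRDM14, TRIM71, VRTN, ZSCAN10 and TDGF1 had log2 fold changes between -0.36 and 0.70 and were not called. DNMT3B, the de novo DNA methyltransferase of the pluripotent epiblast, had 1771 and 1951 CPM against 1895 and 1886 CPM, with overlapping libraries (0.02 ± 0.15, adjusted p = 0.97). UTF1, a chromatin factor of pluripotent cells, was higher at 11.11 and 14.3 CPM in PA cells against 5.49 and 4.28 CPM (1.38 ± 0.30, adjusted p = 0.0072). LEFTY2, an inhibitor and target of NODAL, was higher at 17.5 and 20.3 CPM against 6.55 and 5.47 CPM (1.65 ± 0.34, adjusted p = 0.0050). Both calls were lost without IVF replicate 2 (adjusted p = 0.089 and 0.065) and without PA replicate 2 (0.10 and 0.052).

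Some factors of the naive state, the earlier form of pluripotency, were higher in PA cells. On that list 4 of 14 tested genes were higher and none lower, beside 3.96% and 2.64% of all genes. The fold change was positive for 9 and negative for 5, with a median log2 fold change of 0.87. Among the 8 genes counted in all 16 libraries 1 was called and the median was 0.37. ZFP42 had 36.7 and 35.9 CPM in IVF cells and 122 and 123 CPM in PA cells (1.75 ± 0.14, adjusted p = 0.00011). TFAP2C, a factor shared by naive cells, trophectoderm and germ cells, had 0.543 and 0.528 CPM against 16.7 and 18.2 CPM (5.02 ± 0.54, adjusted p = 2.7e-05). ESRRB had 4.46 and 6.55 CPM against 11.0 and 11.2 CPM (1.01 ± 0.26, adjusted p = 0.016), just past 2-fold, and fell to 0.76 without IVF replicate 1 (adjusted p = 0.15). DNMT3L, a cofactor of de novo methylation, reached 2.49 and 1.37 CPM in PA cells, and its call was lost in 3 of the 4 fits that left out a library. STAT3 and its upstream receptor chain IL6ST were not called, at -0.03 and -0.30. Of 18 genes of the primed and formative state, SOX3 and LEFTY2 were higher and 16 were not called, among them OTX2 (581 and 586 CPM against 554 and 543 CPM) and SALL2. The SOX3 level did not pass 0.617 CPM in any library and its call was lost in 3 of those 4 fits.

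A group of epithelial genes was higher in PA cells. Of 26 tested, 9 were higher, beside 3.96% of all genes, and none lower, and 21 had a positive fold change, with a median of 0.83. These included the keratins of simple epithelia. KRT8 had 286 and 320 CPM in IVF cells and 1018 and 1100 CPM in PA cells (1.80 ± 0.17, adjusted p = 9.3e-06). Its filament partner KRT18 had 93.6 and 101 CPM against 442 and 472 CPM (2.23 ± 0.15, adjusted p = 3.1e-07). KRT19 had 32.5 and 37.0 CPM against 108 and 121 CPM (1.72 ± 0.23, adjusted p = 0.00021). The libraries of the groups were far apart for all 3. The tight junction genes CLDN3 and CLDN4 rose by 2.07 and 3.48, and CLDN4 went from 1.98 and 2.38 CPM to 22.5 and 26.4 CPM. PKP3, a desmosome plaque gene, rose by 3.76 ± 0.29 (adjusted p = 1e-05), from 0.924 and 0.792 CPM to 10.1 and 13.2 CPM. The regulators ESRP2 and GRHL2 were also called, as was MAL2, but these 3 calls were lost when a library was left out (highest adjusted p = 0.23, 0.14 and 0.061). CDH1, the epithelial cadherin, had 298 and 332 CPM against 469 and 449 CPM, which passed the adjusted p (0.0085) but not the 2-fold minimum, and the desmosomal gene DSP was not called (0.32 ± 0.15, adjusted p = 0.16).

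CDH2, the counterpart of CDH1 in neural and mesenchymal cells, had 748 and 691 CPM in IVF cells and 427 and 394 CPM in PA cells (-0.81 ± 0.13, adjusted p = 0.00077), short of 2-fold. CDH11, a mesenchymal cadherin, had 531 and 490 CPM against 193 and 177 CPM (-1.46 ± 0.18, adjusted p = 0.00011). ZEB2, a repressor of CDH1, had 126 and 115 CPM against 60.1 and 53.9 CPM (-1.08 ± 0.14, adjusted p = 0.00014), and its log2 fold change was -0.99 without PA replicate 2. On the list of fibroblast and mesenchyme genes 3 of 25 were higher (TAGLN, SNAI2 and S100A4), 3 lower (CDH11, ZEB2 and COL6A3), with a median of -0.18. COL6A3 had 0.163 and 0.211 CPM in IVF cells and 0 in both PA libraries, and the calls of COL6A3 and S100A4 were lost in each fit that left out a library (highest adjusted p = 0.16 and 0.15). TAGLN, a smooth muscle actin-binding gene, had 23.2 and 41.1 CPM against 117 and 125 CPM (1.92 ± 0.29, adjusted p = 0.00045), and SNAI2, a repressor of epithelial genes, rose by 2.14 ± 0.31 (adjusted p = 0.00036). VIM, the mesenchymal filament gene, was not called and its libraries overlapped. Of the defining fibroblast markers COL3A1 and POSTN were at 0 in all 4 libraries, and COL1A1 had 51.8 to 69.9 CPM. The 8 markers summed to 73.0 and 77.1 CPM in IVF cells and 80.4 and 89.4 CPM in PA cells, most of it COL1A1. The log2 fold change was positive for COL1A1 (0.34) but negative for COL1A2 (-0.09, with overlapping libraries), PRRX1 (-0.54) and TWIST1 (-1.08). It was also negative for DCN and LUM, which held at most 9 reads in a library. None of the 8 was called. The part of feeder cells in any result was not tested.

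Genes of trophectoderm and amnion overlapped with the keratins. Of 15 tested genes, 8 were higher in PA cells, beside 3.96% of all genes, and none lower, and the median log2 fold change was 1.80. KRT8, KRT18 and KRT19 were 3 of the 8 and are shared with the epithelial list. GABRP, a receptor subunit found in amnion-like human cells, had 14.7 and 19.5 CPM in IVF cells and 76.5 and 78.6 CPM in PA cells (2.18 ± 0.35, adjusted p = 0.0011). TEAD4, a transcription factor of early trophectoderm, had 14.9 and 19.3 CPM against 34.0 and 35.9 CPM (1.03 ± 0.20, adjusted p = 0.0034), and its call was lost without IVF replicate 1 and without PA replicate 2 (highest adjusted p = 0.058). GATA3 reached only 1.87 and 1.75 CPM in PA cells, against 0.299 and 0 CPM. KRT7 had 2.47 and 2.69 CPM against 9.19 and 8.16 CPM but an adjusted p of 0.053. CDX2, a defining trophectoderm factor, was at 0 in all 4 libraries, and the 4 trophectoderm markers summed to 2.80 to 2.88 CPM in IVF cells and 10.2 to 11.2 CPM in PA cells, most of it KRT7. In bulk libraries a change in the number of cells of a type and a change in RNA per cell cannot be told apart.

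**Figure D4:**
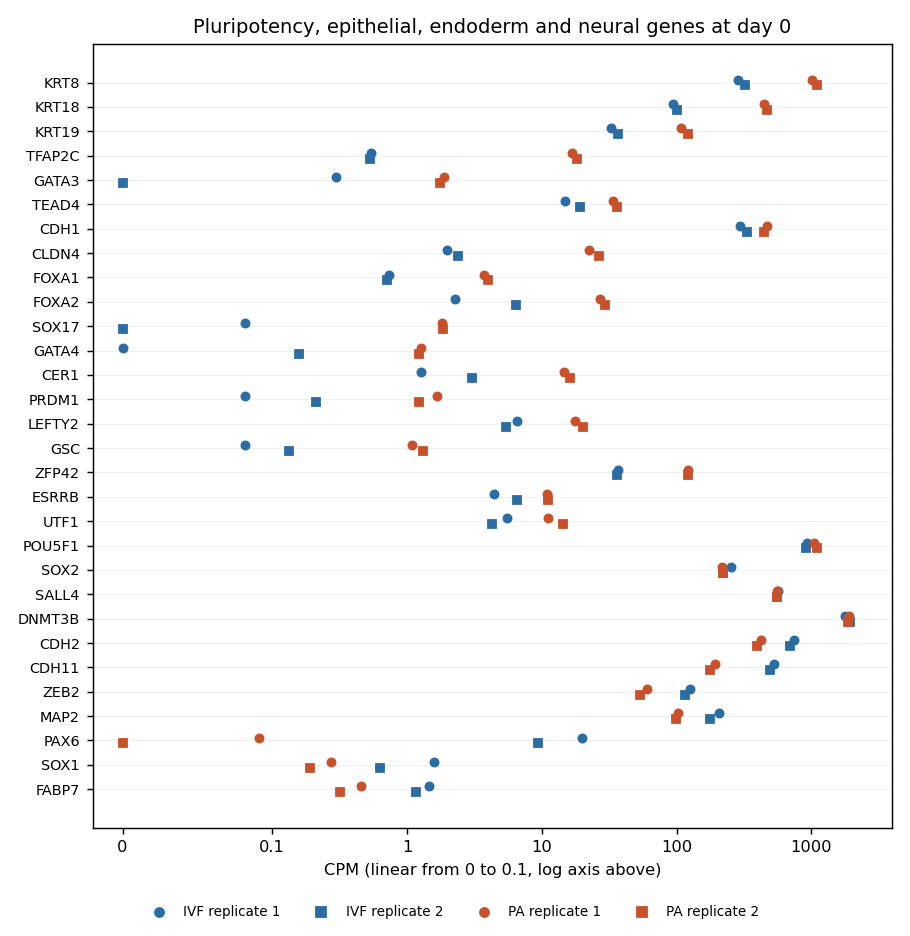
Level of selected pluripotency, epithelial, endoderm and neural genes in each day 0 library (CPM, linear from 0 to 0.1 and logarithmic above), with IVF libraries in blue, PA libraries in orange and replicates as circles and squares. Keratins and the endoderm genes shown, all called higher, lie to the right in PA cells. POU5F1, SOX2, SALL4 and DNMT3B lie close together, and CDH11, PAX6, SOX1 and FABP7 lie to the right in IVF cells.

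Some endoderm and hypoblast regulators were higher in PA cells at low levels. On that list 6 of 21 tested genes were higher, beside 3.96% of all genes, and none lower. The fold change was positive for 16 and negative for 4, with a median log2 fold change of 0.28. FOXA2, a pioneer factor of endoderm and of the floor plate, had 2.28 and 6.47 CPM in IVF cells and 27.2 and 29.2 CPM in PA cells (2.68 ± 0.34, adjusted p = 0.00012). FOXA1, its paralogue, had 0.734 and 0.713 CPM against 3.75 and 3.99 CPM (2.42 ± 0.20, adjusted p = 2.9e-06). The FOXA2 level in the IVF replicates differed by more than that in the PA replicates, without overlap of the groups. CER1, a secreted inhibitor of NODAL and BMP, had 1.28 and 3.04 CPM against 14.6 and 16.2 CPM (2.83 ± 0.58, adjusted p = 0.0045), and without IVF replicate 1 its adjusted p was 0.067. SOX17 had 0.0815 and 0 CPM against 1.83 and 1.84 CPM (ratio 45.6, 95% counting interval 15.4 to 224), and GATA4 had 0 and 0.159 CPM against 1.28 and 1.23 CPM. The calls of SOX17, GATA4 and PRDM1 were lost when a library was left out (highest adjusted p = 0.12, 0.21 and 0.097). APOE and LAMB1, the genes with the highest CPM that were not called, had log2 fold changes of 0.28 and 0.08. The 6 endoderm markers summed to 75.4 and 86.5 CPM in IVF cells and 102 and 110 CPM in PA cells. Of these sums APOA1 gave 68.4 to 76.6 CPM with overlapping libraries. HNF4A, another of the 6, had a negative fold change and was not called (-1.01 ± 0.73, adjusted p = 0.40). GATA6, also of the 6, was not called either (1.23 ± 1.42, adjusted p = 0.62).

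Some secreted factors of the NODAL and BMP pathways were also higher. Of 26 tested genes, 5 were higher, beside 3.96% of all genes, and none lower (median 0.35). Of the 5, CER1 and LEFTY2 are shared with lists described above, where the fits that lost their calls are given. Among the 18 genes counted in all 16 libraries 2 were called and the median was 0.13. BMP7 had 0.326 and 0.740 CPM in IVF cells and 5.42 and 6.55 CPM in PA cells (3.48 ± 0.31, adjusted p = 5.4e-06). INHBE, an inhibin subunit gene, had 0.489 and 0.713 CPM against 4.11 and 3.51 CPM (2.66 ± 0.41, adjusted p = 0.00062). GSC, an organizer gene, did not pass 1.31 CPM and its call was lost in each fit that left out a library. BMP4, BAMBI, FST and the receptor gene ACVR2B had log2 fold changes of 0.18, 0.58, -0.16 and -0.36 and were not called. Of 14 streak and mesoderm genes only GSC was called, T (brachyury) had 0 CPM in IVF cells and 0.183 and 0.127 CPM in PA cells, and TBX6 was not called (0.29 ± 0.19).

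Some early neural genes were lower in PA cells. Of 18 tested neural and surface ectoderm genes, 3 were lower and 1 higher, beside 2.64% and 3.96% of all genes, with a median log2 fold change of -0.77, which was -0.35 without IVF replicate 1 and -0.38 without PA replicate 2. PAX6, a regulator of eye and forebrain, had 19.9 and 9.35 CPM in IVF cells and 0.0914 and 0 CPM in PA cells (-8.29 ± 0.69, adjusted p = 2.9e-06). FEZF1, a forebrain repressor gene at chr18:24881850-24884790, had 245 and 156 CPM in IVF cells and 18.8 CPM in each PA library (-3.42 ± 0.28, adjusted p = 2e-06). OTX1, a head patterning gene, had 7.88 and 6.66 CPM against 0.457 and 0.402 CPM (-4.08 ± 0.29, adjusted p = 6e-07). IVF replicate 1 was the higher of the IVF libraries for PAX6, FEZF1 and OTX1. FEZF1 and OTX1 were not on the neural and surface ectoderm list. FEZF1 was named by the size of its fall, and OTX1 was on the list of embryo genome activation genes. SOX1, the early neural plate factor, was low in both lines (1.58 and 0.634 CPM against 0.274 and 0.190 CPM), and its call was lost without IVF replicate 1 (adjusted p = 0.11) and without PA replicate 2 (0.075). FABP7, of radial glia, fell by 1.76 on the log2 scale from 1.47 and 1.16 CPM. HES5 was the gene called higher, at 0.343 and 0.338 CPM against 0.0543 and 0 CPM, with a ratio of 12.7 and a 95% counting interval of 3.23 to 110, and its call was lost without IVF replicate 2 (adjusted p = 0.086). MAP2, a neuronal microtubule gene, had 207 and 177 CPM against 102 and 99.1 CPM (-0.93 ± 0.15, adjusted p = 0.00097), short of 2-fold, and NES was not called (-0.11 ± 0.14). The 4 neural markers found summed to 39.8 and 29.3 CPM in IVF cells and 10.7 and 11.0 CPM in PA cells.

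Other large falls were CACNA2D4, a calcium channel subunit gene, from 32.5 and 29.9 CPM in IVF cells to 2.88 and 2.22 CPM in PA cells (-3.61 ± 0.18, adjusted p = 1.8e-08), and MMRN1, a multimerin gene, from 10.7 and 6.68 CPM to 0.206 and 0.275 CPM (-5.16 ± 0.39, adjusted p = 8.4e-07).

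**Figure D5:**
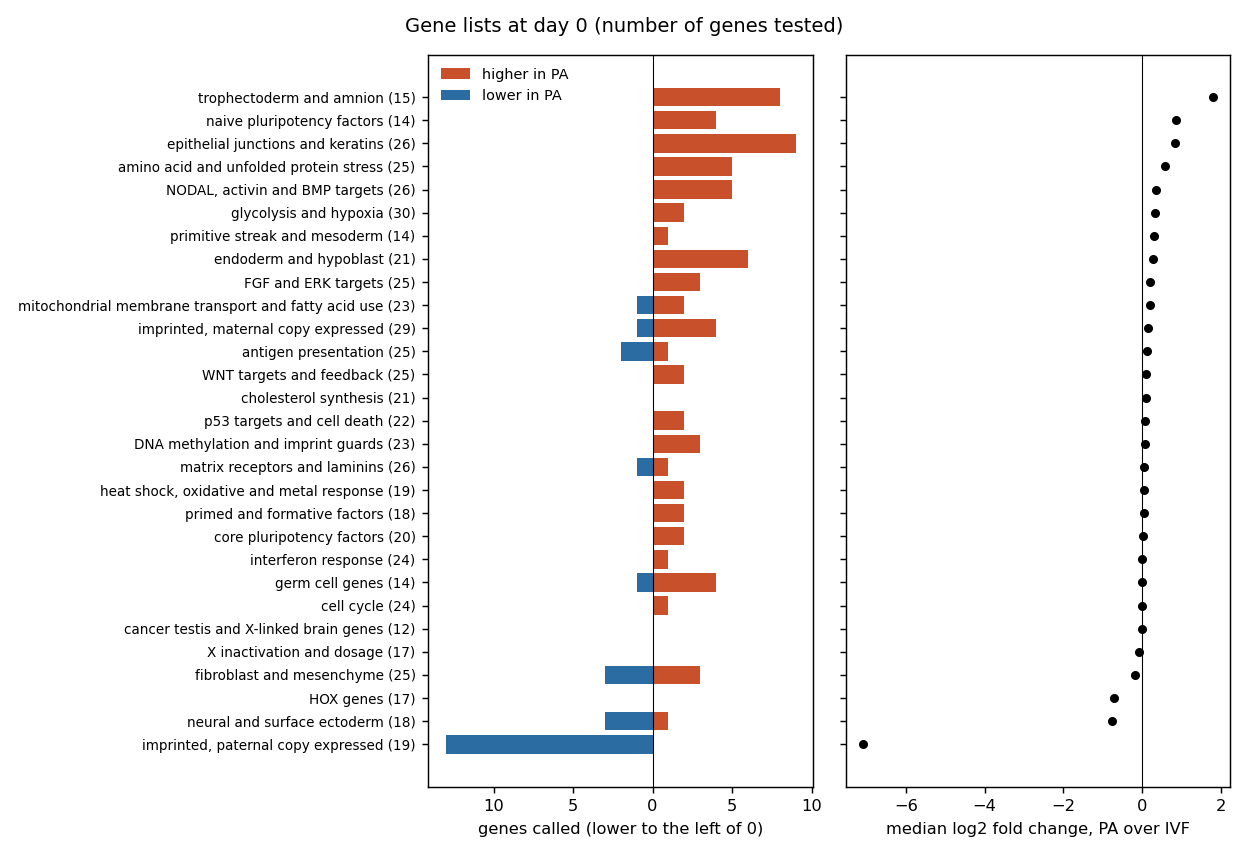
Gene lists with at least 10 tested genes (number tested in brackets), ordered by median log2 fold change of PA over IVF cells. The left panel counts genes called higher (orange, to the right) and lower (blue, to the left), and the right panel gives the median. The paternal imprinted list stands at -7.09 with 13 lower genes, and the trophectoderm and amnion list at the other end at 1.80 with 8 higher genes.

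Genes of the amino acid and unfolded protein response, in part driven by ATF4, included 5 that were higher in PA cells. Of 25 tested stress genes 22 had a positive fold change, with a median of 0.58, and 5 were called higher, beside 3.96% of all genes, and none lower. CHAC1, a glutathione-degrading enzyme, had 10.8 and 14.1 CPM in IVF cells and 49.6 and 48.7 CPM in PA cells (1.98 ± 0.32, adjusted p = 0.00090). TRIB3, a pseudokinase that restrains ATF4, had 2.50 and 3.33 CPM against 8.82 and 10.5 CPM (1.73 ± 0.25, adjusted p = 0.00039). STC2, a secreted glycoprotein, had 4.86 and 3.38 CPM against 12.5 and 11.6 CPM (1.55 ± 0.25, adjusted p = 0.00078). PSAT1, of serine synthesis, had 66.3 and 86.6 CPM against 168 and 174 CPM (1.16 ± 0.17, adjusted p = 0.00037), and 0.98 without IVF replicate 1. The ATF3 call was lost in each fit that left out a library (highest adjusted p = 0.13). The chaperones of the endoplasmic reticulum HSPA5 and HSP90B1 had negative fold changes and were not called (-0.41 ± 0.15 and -0.29 ± 0.14).

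Glycolysis and hypoxia genes gave 2 higher calls among 30 tested, a share near the 3.96% of all genes, with a median of 0.34. PFKP, a phosphofructokinase, had 26.4 and 20.5 CPM in IVF cells and 76.1 and 84.2 CPM in PA cells (1.78 ± 0.15, adjusted p = 3.9e-06). NDRG1, a hypoxia-induced gene, had 4.24 and 6.00 CPM against 14.3 and 13.8 CPM (1.45 ± 0.15, adjusted p = 2.6e-05). GAPDH was not called (0.29 ± 0.13), and ENO1 had 3178 and 2406 CPM against 4407 and 4769 CPM (0.72 ± 0.22, adjusted p = 0.040), short of 2-fold.

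Among 23 DNA methylation genes and guards of imprints, ZFP57, GADD45A and DNMT3L were higher, beside 3.96% of all genes, and none lower (median 0.08). ZFP57, which protects methylated imprints in early embryos, had 1.30 and 1.72 CPM in IVF cells and 7.38 and 6.00 CPM in PA cells (2.14 ± 0.26, adjusted p = 9.1e-05). TRIM28, the corepressor that ZFP57 recruits, had 767 and 716 CPM against 761 and 827 CPM, with overlapping libraries. The GADD45A call was lost in each fit that left out a library (adjusted p from 0.065 to 0.18).

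Antigen presentation genes gave ERAP1 higher and SLA-1 and SLA-3 lower among 25 tested, beside 3.96% higher and 2.64% lower among all genes. SLA-1, a class I histocompatibility gene, had 7.34 and 7.24 CPM in IVF cells and 2.51 and 2.47 CPM in PA cells (-1.55 ± 0.32, adjusted p = 0.0047). The SLA-3 call was lost in each fit that left out a library. LOC100513601, annotated as a class I antigen and lying within the SLA-1 span, had 7.17 and 6.68 CPM against 57.8 and 63.4 CPM (3.13 ± 0.24, adjusted p = 9.7e-07), and its neighbour SLA-5 rose by 3.55 ± 0.49 (adjusted p = 0.00024). These genes are highly alike and vary between animals, and reads may be shared among them, so the level of a single locus is uncertain. TAP2 and SLA-8, the genes with the highest CPM that were not called, had log2 fold changes of 0.28 and -0.37.

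The calls on the remaining lists are read beside 3.96% higher and 2.64% lower among all genes. Cell cycle genes gave 1 higher call among 24 (CCND2), WNT targets 2 among 25 (LGR5 and DKK1), FGF and ERK targets 3 among 25 (DUSP4, FGFR4 and FOS), p53 targets 2 among 22 (PMAIP1 and GADD45A), interferon response genes 1 among 24 (OAS2), stress genes of the heat shock and oxidative response 2 among 19 (GPX1 and GPX2), and matrix receptors 1 higher (ITGB3) and 1 lower (ITGA1) among 26. Mitochondrial and fatty acid genes gave 2 higher (COX7A1 and CKMT1A) and 1 lower (PDK4) among 23, germ cell genes 4 higher (PIWIL2, PRDM1, TFAP2C and SOX17) and 1 lower (STK31) among 14, and embryo genome activation genes only OTX1, lower, among 6. Leaving out a library ended many of these calls. DKK1, FOS, GADD45A, GPX2 and SOX17 lost theirs in each of the 4 fits, with highest adjusted p of 0.18, 0.12, 0.18, 0.17 and 0.12. CCND2, COX7A1 and STK31 lost theirs in 3 fits (0.11, 0.098 and 0.092), and DUSP4, PIWIL2 and PRDM1 in 2 (0.12, 0.076 and 0.097). LGR5, PMAIP1, ITGB3 and CKMT1A lost theirs without IVF replicate 1, CKMT1A because its log2 fold change of 0.98 was then short of 2-fold. FGFR4, OAS2, GPX1, ITGA1, PDK4, TFAP2C and OTX1 kept theirs in all 4 fits. The median log2 fold changes of the cholesterol synthesis, HOX, histone, X inactivation and dosage, and cancer testis and X-linked brain lists were 0.10, -0.70, -0.03, -0.09 and -0.01, and 3 HOX genes reached 1 CPM in a group.

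The median log2 fold change of genes with a mean of at least 1 CPM lay between -0.07 (chromosome 9) and 0.10 (chromosome 12) for the autosomes and was -0.01 for 528 X-linked genes, which took 3.53% of counts in each IVF library and 3.59% and 3.60% in the PA libraries. In windows of 30 neighbouring genes the highest median was 0.44, between BCCIP and SPRN on chromosome 14. The lowest was -0.54, between HINT3 and RSPH4A on chromosome 1. In that window 7 genes were lower and 1 higher, beside 2.64% and 3.96% of all genes. Both windows were picked as the extremes of 13285 overlapping windows, so their medians and counts are descriptions. Of 134 genes placed on the Y chromosome, 98 had no count in any day 0 library, including SRY, EIF1AY, AMELY and all 25 genes annotated as Y-linked heat shock factors. The rest summed to 192 to 206 CPM, with overlapping groups. Among these CD99 was higher in PA cells (0.978 and 1.16 CPM against 4.96 and 4.94 CPM). The placement on Y is that of the reference. All chromosome sets of a parthenogenetic embryo are maternal, so these counts do not show a Y chromosome in PA cells. Where the reads came from was not tested.

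The mitochondrial genome took 4.88% and 4.92% of counts in IVF and 5.76% and 5.37% in PA libraries, and 10 of its 33 expressed genes were higher and 1 lower in PA cells, beside 3.96% and 2.64% of all genes. Most of the higher ones were transfer RNAs, which a poly-A selected library counts poorly. tRNA-Lys had 2.55 and 2.75 CPM in IVF cells and 25.4 and 25.3 CPM in PA cells (3.25 ± 0.18, adjusted p = 3.2e-08). The adjacent tRNA-Trp, tRNA-Ala, tRNA-Asn, tRNA-Cys and tRNA-Tyr formed a run of 5 higher genes, and tRNA-Cys had 0.408 and 0.528 CPM against 5.78 and 5.43 CPM. Among mitochondrial protein genes ND1, of respiratory complex I, had 1055 and 1127 CPM against 2647 and 2599 CPM (1.27 ± 0.13, adjusted p = 1.3e-05) and ATP8 rose by 1.70 ± 0.21, while ND4, COX3 and CYTB had log2 fold changes of -0.38, 0.18 and 0.06. The lower gene was MT tRNA-Ile (-1.20 ± 0.31, adjusted p = 0.019). MT 12S ribosomal RNA (-0.56, adjusted p = 0.024) and ND4L (-0.40, adjusted p = 0.035) passed the adjusted p by edgeR but not the 2-fold minimum. These genes were looked up after their values were seen.

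Part of the day 0 calls were made again later in the same lines. Of the 734 higher genes, 181, 257 and 188 were called higher at days 16, 28 and 45, and 83 on all 3 days. For any gene tested, the share called higher on those days was 3.5%, 10.3% and 8.32%. Of the 490 lower genes, 179, 123 and 115 were called lower again and 63 on all 3 days, beside shares of 5.59%, 6.75% and 5.62% among all genes. Calls in the opposite direction were made on those days for 57, 78 and 70 of the higher genes and for 24, 81 and 55 of the lower genes. No later call in the same direction was made for 368 of the higher and 249 of the lower genes. The shares of all genes with calls on all 3 days, or on none, were not computed, so those counts are descriptions. The difference between day 0 and the mean of the later days was itself called for 371 of the higher and 298 of the lower genes, beside 8.77% of all genes. These genes were chosen by their day 0 difference, which is part of that contrast. A larger share than among all genes was therefore favoured by the choice and is no separate result. TRIM4 had log2 fold changes of -13.29, -14.15 and -13.86 at days 16, 28 and 45. MAGEL2 had -0.14, -0.26 and -1.95 on those days.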

How the data were processed

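The authors trimmed reads with Trimmomatic 0.38, aligned them to Sscrofa11.1 with HISAT2 2.1.0 and SAMtools 1.9, and estimated gene levels with StringTie 2.1.3b. The deposited table gives read counts per gene, with FPKM and TPM values of the authors beside them. Counts were used for all main results, and TPM for 1 alternative. The strand setting is not given in the sources used here. Of 28232 gene IDs, 28208 matched the RefSeq table, and 24 mitochondrial RNA genes had no symbol.

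Library sizes were scaled by TMM, genes were filtered with filterByExpr, and edgeR 4.0.16 in R 4.3.3 fitted 8 group means to 16 libraries (8 residual degrees of freedom). The common dispersion was 0.01774, against 0.003553 for the day 0 libraries alone. Calls needed a 2-fold difference and a Benjamini-Hochberg adjusted p under 0.05. CPM values are counts per 1000000 of the TMM-scaled library, and fold bounds use a floor of 3 counts per library. Errors of log2 fold changes are approximate standard errors, the size of the change divided by the square root of the test's F value. For genes near 0 counts in a group they may fall below the counting error and are no intervals. limma 3.58.1 and DESeq2 1.42.0 served as alternatives, and the scripts were tested on simulated data.

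Genes were named by size (up to 15 rises and 15 falls with at least 5 CPM in the higher group), by adjusted p (5 each way with at least 50 CPM), by list (up to 4 called members and the 2 not called with the highest CPM), and every imprinted or core pluripotency gene with at least 5 CPM. Genes named by size or adjusted p also needed groups whose libraries did not overlap. The members and lists were chosen with earlier results of these data known.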

Additional observations from a re-analysis of the deposited data

Results flagged for a closer look

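The PA to IVF difference at day 0 was set against its mean over days 16, 28 and 45 in the same edgeR fit. It differed for 1625 genes, at an adjusted p below 0.05 and at least 2-fold. Named genes are listed below only if they were also called at day 0. The day 0 difference is part of the contrast, so that choice favoured genes whose difference was larger at day 0.

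Among named genes the log2 difference of day 0 minus the later days was positive, so that the PA to IVF difference was higher at day 0 than the mean of the later days, with these values: ACTA1 2.83, ADCY2 3.12, AMY2 2.85, ANO1 1.13, ASB4 3.1, BMP7 3.29, CER1 4.16, CHAC1 2.31, CTSZ 4.27, DDR2 1.85, DNMT3L 2.83, ESRRB 2.18, FOXA1 3.4, FOXA2 4.45, HTATIP2 4.09, INHBE 3.19, KCNA6 8.09, KRT18 1.26, KRT19 3.49, KRT8 2.03, MEST 1.68, NDRG1 1.55, PFKP 1.68, PLAGL1 3.8, PRDM1 5.92, PSAT1 1.14, SNAI2 2.11, STC2 2.44, TAGLN 1.72, TFAP2C 4.47, TRIB3 1.94, UNC13C 11.14, ZFP57 2.23. The mean hides single days: at day 16 the log2 fold changes of ANO1, KRT18 and KRT8 were 1.87, 3.61 and 2.00, above 1.46, 2.23 and 1.80 at day 0.

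It was negative, so that the difference was lower at day 0 than the mean of the later days, with these values: ARHGAP28 -1.96, CACNA2D4 -1.62, CDH11 -1.58, DLK1 -2.92, FABP7 -1.55, FEZF1 -5.38, MAGEL2 -14.4, MMRN1 -4.55, OTX1 -4.2, PAX6 -7.93, PEG3 -10.33, PKP3 -5.3, TFPI2 -1.78. For CACNA2D4 the log2 fold change was -3.61 at day 0 and 2.33, -3.75 and -4.56 at days 16, 28 and 45, so only day 16 was higher. Fitted values of genes with 0 counts in a group, such as MAGEL2, PEG3, UNC13C and KCNA6, depend on the prior count and are no bounds.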

How the results depend on the processing

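The numbers of genes higher in PA at day 0 (734) and of genes lower in PA at day 0 (490) changed most with the call rule: without a fold minimum 1659 and 1425 genes were called, against a null of 2-fold 217 and 152, and by limma on log2(TPM + 1) 276 and 233. Leaving out a library gave 465 to 550 higher and 353 to 396 lower genes, and 1147 to 1297 genes whose PA to IVF difference changed between day 0 and the later days. RLE, upper-quartile and library-total scaling gave 689 to 754 higher and 476 to 533 lower genes, and the day 0 libraries alone 947 and 562. DESeq2 called 782 and 557 genes, sharing 1181 calls with edgeR, with no adjusted p for 4899 genes. The replicate block gave 709 higher and 475 lower genes and 1612 changed differences. Deviations of same-numbered day 0 libraries correlated at -0.13 over 11425 genes, so the numbers were not taken as pairs. A crossed pairing, chosen after seeing the data, gave 711 and 473. Of 72 called named genes none reversed and 47 kept their call under every alternative that gave a value for them. Reversed values were all of genes that were not called. By limma on log2(TPM + 1) they were BMP4 -0.027, CD81 -0.011, DNMT3B -0.13, GRB10 -0.14, IGF2R -0.036, LAMB1 -0.078, LIN28A -0.11, NAP1L4 -0.10, TRAPPC9 -0.033, TRIM28 -0.054, TSSC4 -0.016, VIM -0.11, VRTN -0.052 and ZSCAN10 -0.036. DNMT3B was -0.017 with library totals alone. IMPACT was 0.014 and SALL4 0.0018 with upper-quartile scaling, and IMPACT 0.0038 with no filter and 0.00072 with genes counted in all 16 libraries. With a library left out the log2 fold change of DNMT3B ranged from -0.045 to 0.095, the log2 fold change of IMPACT from -0.075 to 0.072, that of PRDM14 from -0.071 to 0.032, of STAT3 from -0.071 to 0.0095 and of VIM from -0.086 to 0.18. Requiring a count in all 16 libraries left 9 genes of the paternal list, 3 of them called, with a median of 0.00072, because genes at 0 in PA cells are removed by that rule. The cause of the other changes was not tested. With 2 libraries of 1 line per origin, the spread between lines was not measured, and levels near 3 counts per library limit what can be told at this depth.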
